A study of Caenorhabditis elegans with 10 samples.

Results

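Complex I of the mitochondrial respiratory chain was followed through its 34 nuclear-encoded subunit genes that had a probe set of their own on the array. They were chosen by name, as genes called nuo-, nduf-, ndua-, ndub-, nduc-, ndus-, nduv- or ndab- plus gas-1 and lpd-5, out of 17118 genes with 1 symbol per probe set. Each gene was read from 1 probe set, the one with the highest mean over the 10 arrays, which was a choice to be made for 9 of the 34 genes. All 34 passed the filter on low values, together with 12641 genes in all, and the p-values below were adjusted over these 12641.

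The arrays measured predominantly young adult Caenorhabditis elegans, enriched by sucrose centrifugation, with 1 Affymetrix whole-genome array per strain or feeding and the RNA of 3 biological replicates pooled on each. The 3 missense mutants were gas-1(fc21) in complex I, mev-1(kn1) in complex II and isp-1(qm150) in complex III, and their control was the N2 Bristol wild type. These 4 cultures were kept for 2 generations on OP50 plates and then in K12 liquid culture. The 5 RNAi cultures were N2 animals fed bacteria against F22D6.4 (nduf-6), Y45G12B.1 (nuo-5), C34B2.8 (ndua-13), Y56A3A.19 (ndab-1) or D2030.4 (ndub-7), for 2 generations on plates and the next in liquid, with 5 mM IPTG. Their control was the N2 wild type kept on HT115 on plates and in liquid, whose label mentions no IPTG and no empty vector. The label of the isp-1 array gives T07C4.7, the same sequence name as the mev-1 label. Each strain was thus 1 pooled array, and each wild type was 1 array that all mutants of its culture share as their control.

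Complex I takes electrons from NADH and passes them to ubiquinone, pumping protons across the inner mitochondrial membrane. Its arm in the matrix holds the core subunits that bind NADH and the iron-sulfur chain leading to the quinone site, and its arm in the membrane holds the proton pumps, whose core subunits are encoded in mitochondrial DNA and were not analysed here. Accessory subunits surround both arms and serve assembly and stability. In C. elegans, gas-1 mutants are known for oxidative stress, short life and high sensitivity to volatile anaesthetics, and RNAi against several other subunits is known for long life. Genes were assigned to parts of the complex by their human counterparts, except nduf-11, which was assigned by name to the membrane arm. Of the 34 genes, 3 belong to the NADH-binding core, 5 to the quinone core and 8 are accessory subunits of the matrix arm. A further 16 are accessory subunits of the membrane arm and 2 encode acyl carrier proteins.

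Values are log2 levels after quantile normalisation, and a difference is the log2 level of an array minus that of the wild type of its culture. The 34 genes had mean levels between 9.33 and 12.70, where the median over all genes tested was 7.55 and the filter level was 2.60. Levels of different probe sets are not set against each other. Marker genes of the main tissues were present in the whole animals, with median levels over the arrays of 12.21 to 12.94 for body wall muscle, 13.56 to 13.98 for intestine, 8.60 to 9.10 for neurons and 11.37 to 12.66 for oocytes. Sperm genes ranged widely, from 7.62 in the array labelled nduf-6 RNAi to 12.11 in the array labelled ndub-7 RNAi. In bulk samples fewer cells of a type and less RNA per cell cannot be told apart.

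The mutated and targeted genes come first, since they check the labels. The transcript of nuo-5, which encodes the core subunit with more iron-sulfur clusters than any other, stood at 9.60 in the array labelled nuo-5 RNAi, against 10.54 in the HT115 wild type. This was 51.9% of the wild-type level and 41.4% of the median of the other RNAi arrays, which lay between 10.47 and 11.21. Both probe sets of the gene gave this picture, with differences of -0.95 and -1.11. The target array was the lowest of the 10 by a wide margin.

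The accessory subunit gene ndua-13 stood at 10.46 in the array labelled ndua-13 RNAi, against 10.97 in the HT115 wild type, or 70.5% of it. This was also the lowest of the 10 arrays, although the array labelled nuo-5 RNAi came close at 10.60. The gene nduf-6, for an accessory subunit next to the NADH-binding part, stood at 11.07 in its own RNAi array, against 11.32 in the wild type, or 83.9%. It was the lowest of the 5 RNAi arrays there, but most of the members were at their lowest in that array, as described below.

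The other RNAi targets did not show a clearly lower transcript. In its own RNAi array ndub-7 had a level of 11.40, against 11.58 in the HT115 wild type (88.5%), which was 103% of the median of the other RNAi arrays, with 2 of them lower and 2 higher. The acyl carrier protein gene ndab-1 stood at 11.78 in the array labelled ndab-1 RNAi, against 10.71 in the HT115 wild type, and was the highest of the 10 arrays at 211% of the wild type. Its second probe set, of lower mean signal, gave a difference of -0.18 in the same array, so the probe sets of ndab-1 did not move together there. In the other 7 mutant arrays the differences of these probe sets had the same sign in 6, and in the array labelled ndua-13 RNAi they were 0.04 and -0.04.

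The gene gas-1, whose product lines the quinone site, stood at 11.44 in the gas-1 mutant, against 11.06 in the K12 wild type. A missense mutation need not change its transcript, so this value does not check the label. RNAi arrays are called by their labels throughout.

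**Figure D1:**
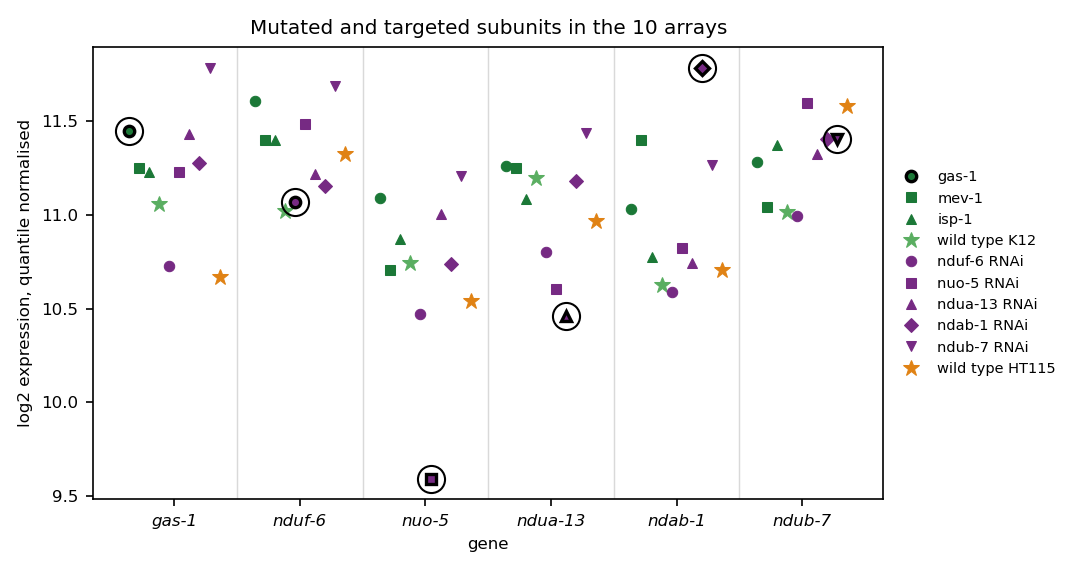
Levels (log2, quantile normalised) of the 6 mutated or targeted genes in the 10 arrays, 1 point per array. A ring marks the array labelled with that gene. The ringed point lies lowest of all arrays for nuo-5 and ndua-13, lowest of the RNAi arrays for nduf-6, inside the others for ndub-7 and highest of all for ndab-1.

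Across the complex, the gas-1 mutant showed the most uniform picture: 34 of the 34 subunits stood above the K12 wild type, with differences from 0.07 to 0.61 and a median of 0.38, where 49.5% of all genes tested were higher. The isp-1 mutant had 32 of 34 higher (background 55.1%) with a median of 0.20, and the mev-1 mutant had 23 of 34 (background 46.4%) with a median of 0.06. The differences were small in size. At a threshold of 1.5-fold, 2 members were higher in gas-1 (background 7.85%), 1 in mev-1 (background 9.02%) and 0 in isp-1 (background 6.47%). In none of these mutants was a member lower by that much (0 of 34 in each, where the backgrounds were 9.45%, 8.71% and 7.25%). The members past it were nduf-6 (0.59) and the membrane arm subunit gene ndub-3 (0.61) in gas-1, and ndab-1 (0.77) in mev-1. Furthest above wild type in isp-1 were lpd-5 (0.55) and ndub-3 (0.51), and furthest below in mev-1 were ndua-8 (-0.27) and ndua-2 (-0.22).

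The order of the missense mutants did not rest on the shared wild type. Among these 3 arrays, gas-1 held the highest level for 28 of the 34 subunits (82.4%, where it held 30.7% of all genes tested), isp-1 for 5 and mev-1 for 1. In turn mev-1 held the lowest level for 29 subunits (85.3%, background 41.7%) and isp-1 for 5. For most subunits the complex I mutant thus lay highest and the complex II mutant lowest. The median differences of complex II, III, IV and ATP synthase genes, given below, had the same order, with isp-1 between.

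The RNAi arrays differed among themselves for the same genes. In the array labelled ndub-7 RNAi 29 of the 34 subunits were higher than in the HT115 wild type (background 41.9%), with a median of 0.42. With nduf-6 RNAi, 24 of 34 were lower (background 44.9%), with a median of -0.14. The arrays labelled nuo-5, ndua-13 and ndab-1 RNAi lay between, with 21, 22 and 21 of 34 higher (backgrounds 54.4%, 47.2% and 45.9%) and medians of 0.07, 0.04 and 0.09. At 1.5-fold, 6 members were higher (background 19.2%) and 1 was lower (background 22.3%) in ndub-7 RNAi, while 1 was higher (background 8.6%) and 4 were lower (background 10.5%) in nduf-6 RNAi. The member furthest below wild type was nduv-3 in nduf-6 RNAi (-1.38) and nduv-2 in the others, and the furthest above was nduf-7 in 3 arrays (0.64 to 0.95), ndab-1 in its own (1.08) and gas-1 in ndub-7 RNAi (1.11).

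This order too held among the RNAi arrays alone. The array labelled ndub-7 RNAi was the highest of the 5 for 28 subunits (82.4%, background 26.8%), and over all 10 arrays it was the highest for 22 (64.7%, background 20.7%). The array labelled nduf-6 RNAi was the lowest of the 5 for 26 subunits (76.5%, background 19.7%). For sperm, oocyte and moulting genes these 2 arrays were also the furthest from the HT115 wild type. Sperm genes had a median difference of 1.59 in ndub-7 RNAi (36 of 38 higher) and -2.51 in nduf-6 RNAi (6 of 38 higher). Oocyte genes stood at -0.83 (0 of 10 higher) and 0.33 (10 of 10), and moulting genes at 0.99 (11 of 12) and -0.42 (3 of 12). Almost as far off were oocyte genes in ndab-1 RNAi, at -0.32 (0 of 10 higher). Neuron genes were instead furthest in ndua-13 RNAi (0.82) and ndab-1 RNAi (0.65). They stood at 0.49 in ndub-7 RNAi and 0.33 in nduf-6 RNAi. The part of these genes in the order of the RNAi arrays was not tested. The gas-1 mutant, in which all subunits were higher, had a sperm median of -0.01 (19 of 38 higher) with moulting genes at -0.60 (2 of 12 higher), body wall muscle genes at -0.32 (0 of 10) and oocyte genes at -0.12 (1 of 10). The part of these in the gas-1 values was not tested.

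**Figure D2:**
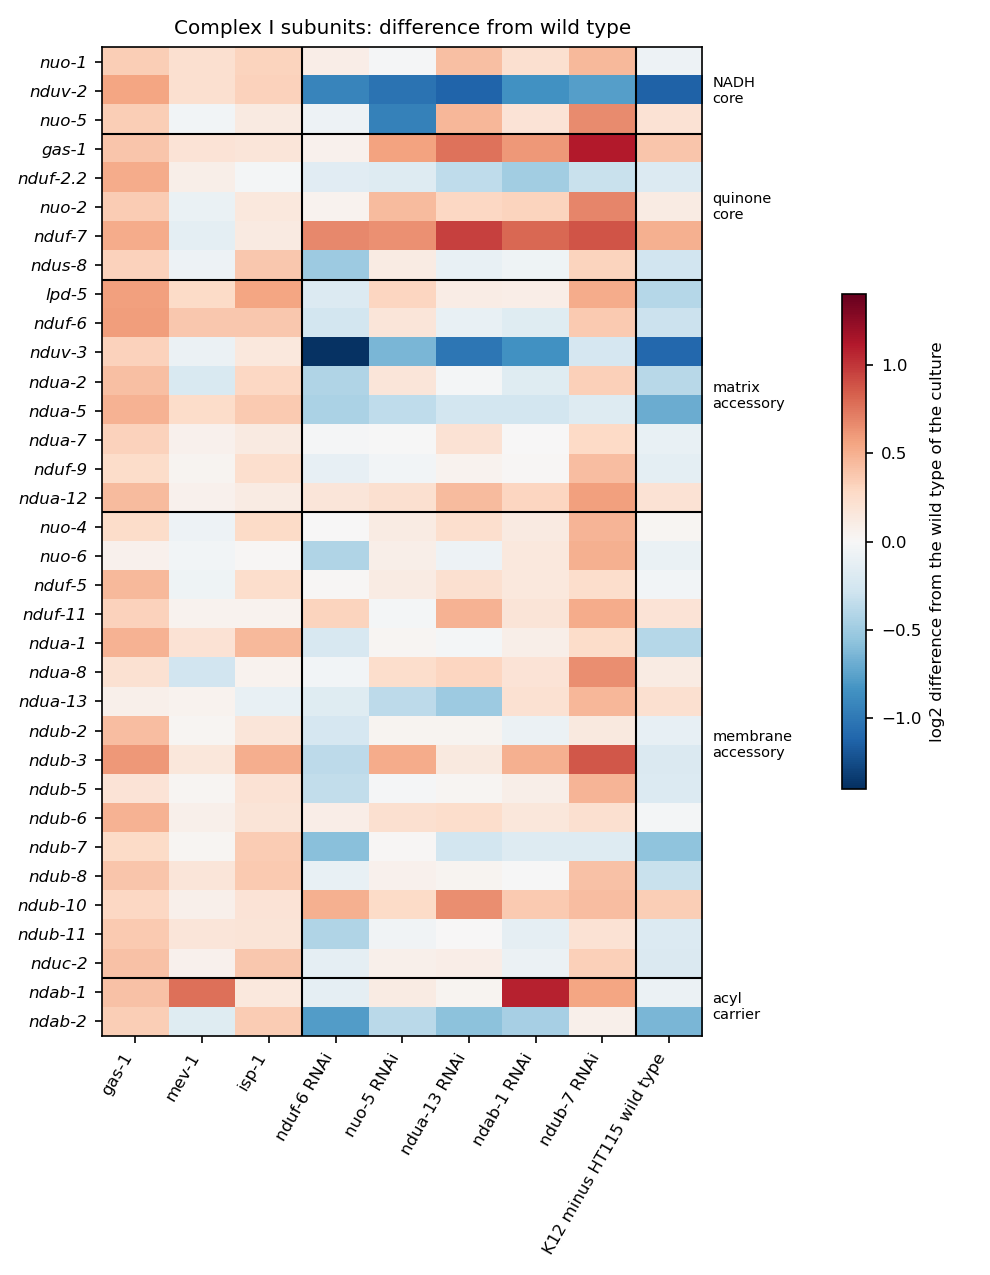
Log2 difference of each of the 34 subunit genes (rows, by part of the complex) from the wild type of the same culture, for the 3 missense mutants, the 5 RNAi arrays and, in the last column, the K12 wild type minus the HT115 wild type. The gas-1 column is higher throughout, and nduv-2 and nduv-3 are lower in every RNAi array and in the last column.

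**Figure D3:**
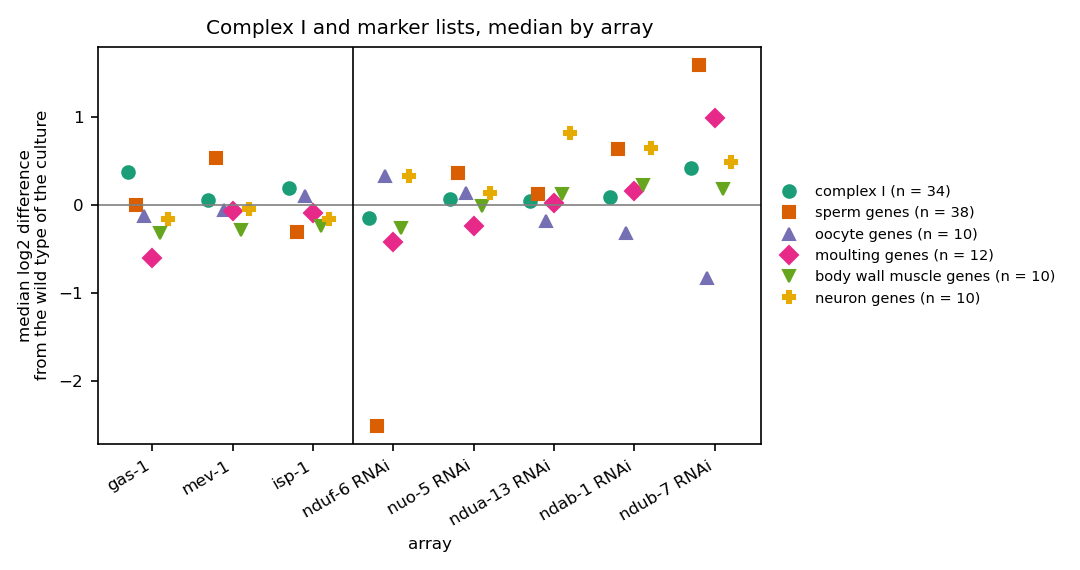
Median log2 difference from the wild type of the culture for complex I and for marker lists, by array. The complex I median runs from -0.14 in nduf-6 RNAi to 0.42 in ndub-7 RNAi, the arrays in which the sperm median is lowest (-2.51) and highest (1.59). In gas-1, mev-1 and isp-1 the sperm median is -0.01, 0.54 and -0.31, where the complex I median is 0.38, 0.06 and 0.20.

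No single subunit passed the test. With limma, 0 of the 34 members had an adjusted p under 0.05 when the 8 mutants together were set against the 2 controls (background 0.0158%), or the missense mutants against the K12 wild type (0.0316%). The same held for the RNAi arrays against the HT115 wild type (0.396%) and for the difference of the responses (0.0475%). At an unadjusted p of 0.05 there were 2, 1, 3 and 2 members, or 5.88%, 2.94%, 8.82% and 5.88%, beside backgrounds of 6.91%, 3.05%, 8.2% and 4.23%. The direction was less evenly spread than in all genes. In the 8 mutants 28 of 34 members were higher on average (background 50.5%) with a median of 0.15, where that of all genes was 0.00. Without the K12 wild type these were 23 of 34 and 0.06. In the missense mutants 33 of 34 were higher (background 51.8%) with a median of 0.21, against 0.01 for all genes, and 21 were higher in each of the 3 mutants (61.8%, background 25.5%). Without gas-1 that median was 0.12. In the same comparison body wall muscle genes had a median of -0.28 (0 of 10 higher) and moulting genes of -0.25 (3 of 12 higher), and their part in the missense values was not tested. In the RNAi arrays 23 of 34 were higher (background 50%) with a median of 0.06, against 0.00 for all genes, with 8 higher (23.5%, background 15.1%) and 4 lower (11.8%, background 18.3%) in each of the 5 arrays. Higher than their control in 8 of 8 mutant arrays were 4 members, gas-1, ndua-12, ndub-6 and ndub-10 (11.8%, background 4.71%). For gas-1, ndua-12 and ndub-10 the HT115 wild type was the lowest of all arrays, so their RNAi differences rest on that single control. The RNAi count rested on the array labelled ndub-7 RNAi: without it 15 of 34 were higher and the median was -0.02. Without nduf-6 RNAi the median was 0.12. The error behind the tests by group is the variation among mutants of a kind, each lone wild type being assumed to vary to the same degree. In the test of the 8 mutants the error also takes in the difference between the missense and RNAi responses. Ratios that share a wild type are not replicates.

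The NADH-binding core had the gene with the smallest p of the complex. The gene nduv-2 encodes an iron-sulfur subunit beside the NADH site. In the missense mutants it stood at 12.05 (gas-1), 11.71 (mev-1) and 11.81 (isp-1), against 11.49 in the K12 wild type. In the RNAi arrays it stood at 11.70 (nduf-6), 11.59 (nuo-5), 11.78 (ndab-1), 11.50 (ndua-13) and 11.85 (ndub-7), against 12.62 in the HT115 wild type. The RNAi values thus lay inside the range of the K12 cultures, and the HT115 wild type stood alone, 0.58 above the highest of the other 9 arrays. The fit gave -0.94 ± 0.17 (SE) for RNAi against the HT115 wild type, with a limma adjusted p of 0.0998, and 0.37 ± 0.18 for the missense mutants (adjusted p = 1). Without any filter on low values the RNAi comparison passed, at an adjusted p of 0.0399. The difference between the responses was -1.31 (limma adjusted p = 0.292).

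Of its partners, nuo-1, the subunit that binds NADH and FMN, stood at 11.55, 11.44 and 11.52 in gas-1, mev-1 and isp-1, against 11.21 in the K12 wild type. In the RNAi arrays it lay between 11.27 and 11.73, against 11.28 in the HT115 wild type. It was higher in 7 of 8 mutant arrays, at 0.26 ± 0.13 over the 8 (limma adjusted p = 0.764). Outside its own RNAi array, nuo-5 differed from wild type by -0.07 to 0.66.

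The 5 genes of the quinone core had a median difference of 0.35 in the fit for the RNAi arrays, against 0.06 for all members, with 3 of 5 higher. The higher ones were nduf-7, gas-1 and nuo-2, and in each of them the single HT115 wild type was the lowest of the 10 arrays. The means of nduf-2.2 and ndus-8 lay below the HT115 wild type. The gene nduf-7 encodes the subunit with the last iron-sulfur cluster before the quinone. It stood at 11.25 (nduf-6), 11.22 (nuo-5), 11.39 (ndab-1), 11.53 (ndua-13) and 11.45 (ndub-7) in the RNAi arrays, against 10.58 in the HT115 wild type. In the missense mutants it stood at 11.60, 10.94 and 11.21, against 11.08 in the K12 wild type, so that mev-1 lay below its control. The RNAi difference was 0.79 ± 0.23 (limma adjusted p = 0.329), and the HT115 wild type was the lowest of the 10 arrays, by 0.36. The second probe set of nduf-7 gave differences of 0.21 to 0.93 in the RNAi arrays.

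The gas-1 transcript was higher than its control in 8 of 8 mutant arrays. It stood at 10.72 (nduf-6), 11.23 (nuo-5), 11.27 (ndab-1), 11.43 (ndua-13) and 11.78 (ndub-7) in the RNAi arrays, against 10.67 in the HT115 wild type. In the missense mutants it stood at 11.44, 11.25 and 11.23, against 11.06 in the K12 wild type. The RNAi difference was 0.62 ± 0.32 (limma adjusted p = 0.683). The second probe set of gas-1, of lower mean signal, gave differences of 0.21 to 1.67 in the RNAi arrays, where the one used gave 0.06 to 1.11. The paralog of gas-1, nduf-2.2, which encodes a second form of the same subunit, went the other way in the RNAi arrays. It stood at 9.33, 9.31, 9.01, 9.13 and 9.18 in the same order of RNAi arrays, against 9.49 in the HT115 wild type. In gas-1, mev-1 and isp-1 it stood at 9.82, 9.39 and 9.27, against 9.30 in the K12 wild type. The gas-1 mutant had the highest nduf-2.2 level of the 10 arrays, a difference of 0.52, while the fit for all 8 mutants gave -0.07 ± 0.17 (limma adjusted p = 0.991). Probe sequences were not used here, so shared hybridisation of these paralogs was not tested. The remaining core genes nuo-2 and ndus-8 had RNAi differences of 0.05 to 0.68 and of -0.51 to 0.31.

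Among the accessory subunits of the matrix arm, the median was 0.43 in gas-1 (8 of 8 higher), 0.06 in mev-1 (6 of 8) and 0.26 in isp-1 (8 of 8). It was -0.22 (1 of 8) for nduf-6 RNAi and 0.35 (6 of 8) for ndub-7 RNAi. For nuo-5, ndua-13 and ndab-1 RNAi it was 0.08, 0.01 and -0.08 (4 of 8 in each). The K12 wild type minus the HT115 wild type gave -0.35 (1 of 8), so a low median here was not particular to nduf-6 RNAi. The gene nduv-3 encodes another subunit near the NADH site. It stood at 10.01 (nduf-6), 10.76 (nuo-5), 10.55 (ndab-1), 10.38 (ndua-13) and 11.16 (ndub-7) in the RNAi arrays, against 11.40 in the HT115 wild type. In the missense mutants it stood at 10.63, 10.22 and 10.45, against 10.30 in the K12 wild type. As for nduv-2, the HT115 wild type was the highest of the 10 arrays and all 5 RNAi arrays lay below it, whereas mev-1 lay below its control. The RNAi difference was -0.82 ± 0.36 (limma adjusted p = 0.617).

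The gene ndua-5, for another accessory subunit of this arm, was also highest in the HT115 wild type. It stood at 11.82 (nduf-6), 11.90 (nuo-5), 12.004 (ndab-1), 12.002 (ndua-13) and 12.08 (ndub-7) in the RNAi arrays, against 12.26 in the HT115 wild type. In gas-1, mev-1 and isp-1 it stood at 12.05, 11.83 and 11.94, against 11.57 in the K12 wild type. Every missense array was higher and every RNAi array was lower than its control, as for nduv-2. These were the 2 of 34 members (5.88%) with such opposite sides, beside a background of 6.45% that counts either direction. In these genes the K12 wild type was the lowest of the 10 arrays and the HT115 wild type the highest. The fits gave 0.37 ± 0.15 for missense (adjusted p = 1) and -0.30 ± 0.14 for RNAi (adjusted p = 0.649).

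The other matrix accessory genes varied in direction between arrays. The gene nduf-6 stood at 11.61, 11.40 and 11.40 in gas-1, mev-1 and isp-1, against 11.02 in the K12 wild type, a missense difference of 0.45 ± 0.24 (limma adjusted p = 1). The gene ndua-12 was higher than its control in 8 of 8 mutant arrays, by 0.06 to 0.57, and gave 0.28 ± 0.14 over the 8 (adjusted p = 0.753). Its lowest level of all arrays was in the HT115 wild type. The gene lpd-5, counterpart of the human NDUFS4 whose loss causes Leigh syndrome, differed by 0.57, 0.26 and 0.55 in gas-1, mev-1 and isp-1. The genes ndua-2, ndua-7 and nduf-9 had differences between -0.42 and 0.43 over the 8 arrays.

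The membrane arm was the part with the most genes. Its 16 accessory genes had medians of 0.34 in gas-1 (16 of 16 higher), 0.05 in mev-1 (12 of 16) and 0.20 in isp-1 (15 of 16). In the RNAi arrays the medians were -0.15 (5 of 16 higher) for nduf-6, 0.07 for nuo-5, 0.07 for ndua-13, 0.13 for ndab-1 and 0.42 (15 of 16) for ndub-7. The gene ndub-10 had the smallest p over the 8 mutants. It stood at 12.91, 12.69 and 12.82 in gas-1, mev-1 and isp-1, against 12.63 in the K12 wild type. In the RNAi arrays it stood at 12.78 (nduf-6), 12.55 (nuo-5), 12.65 (ndab-1), 12.94 (ndua-13) and 12.72 (ndub-7), against 12.28 in the HT115 wild type. It was higher in 8 of 8 mutant arrays, at 0.32 ± 0.12 (limma adjusted p = 0.628), and the HT115 wild type was the lowest of the 10 arrays.

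Within this arm ndub-3 spanned the widest range, 1.24 over the 10 arrays, with the lowest level in nduf-6 RNAi (10.49) and the highest in ndub-7 RNAi (11.72). The gene ndub-6 was also higher in 8 of 8 mutant arrays, by 0.07 to 0.49. The gene ndua-1 had a missense difference of 0.38 ± 0.20 (limma adjusted p = 1) and ndua-8 had the one missense mean below 0, at -0.00 ± 0.27, with gas-1 at 0.21, mev-1 at -0.27 and isp-1 at 0.05. The gene nuo-6, in which a point mutation is known to lengthen life, differed by 0.07, -0.04 and 0.01 in gas-1, mev-1 and isp-1. The gene ndub-7 stood lowest of the 10 arrays in nduf-6 RNAi (10.99, a difference of -0.59) and not in its own array. For ndua-13 the differences were 0.07, 0.05 and -0.11 in gas-1, mev-1 and isp-1. Its RNAi differences ran from -0.51 in its own array to 0.47 in ndub-7 RNAi. The remaining genes of the arm, nuo-4, nduf-5, nduf-11, ndub-2, ndub-5, ndub-8, ndub-11 and nduc-2, had differences between -0.42 and 0.52.

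The acyl carrier proteins carry a lipid chain for mitochondrial fatty acid synthesis besides their place in complex I. Apart from its own RNAi array, ndab-1 was highest in mev-1, at 11.40, against 10.63 in the K12 wild type, and both of its probe sets had this difference (0.77 and 1.11). The gene ndab-2 stood at 10.50 (nduf-6), 10.90 (nuo-5), 10.82 (ndab-1), 10.71 (ndua-13) and 11.35 (ndub-7) in the RNAi arrays, against 11.28 in the HT115 wild type. It was lower in 4 of these 5 arrays, at -0.42 ± 0.31 (limma adjusted p = 0.862).

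**Figure D4:**
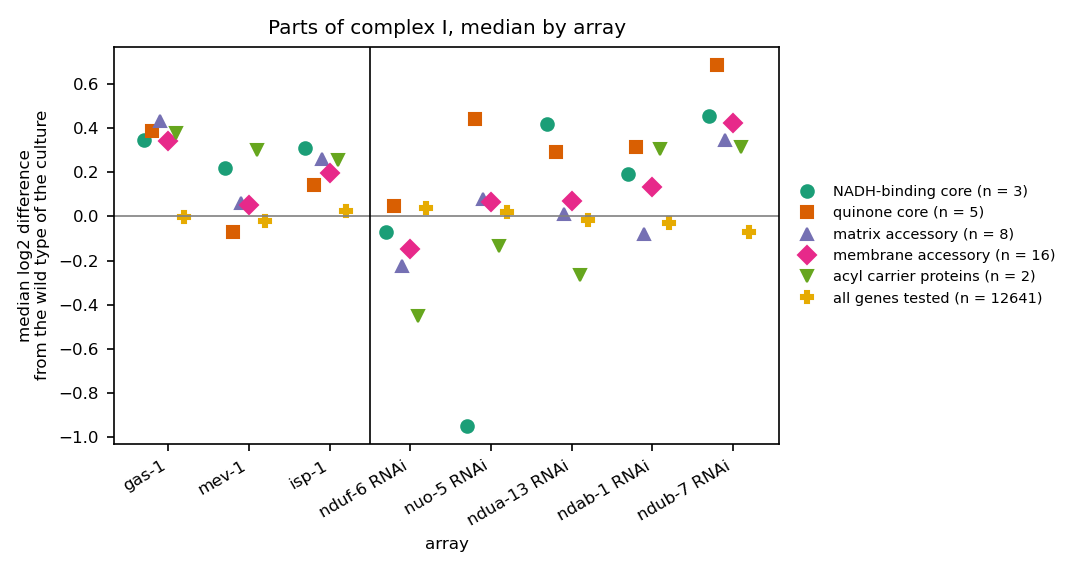
Median log2 difference from the wild type of the culture for each part of complex I and for all genes tested, by array. The parts lie together between 0.34 and 0.43 in gas-1 and spread furthest in nuo-5 RNAi, where the NADH-binding core, which holds the target, has a median of -0.95 and the quinone core 0.44. That median of -0.95 is the value of the target nuo-5 itself, beside nuo-1 at -0.01 and nduv-2 at -1.03. The gene nduv-2 is lower than the HT115 wild type in every RNAi array.

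The wild types were also set against each other. The K12 wild type stood below the HT115 wild type in 24 of the 34 members (background 53.7%), with a median of -0.13, and 4 members were at least 1.5-fold lower (11.8%, background 10.7%) and 0 higher by as much (background 10.3%). The lower ones were nduv-2 (-1.13), nduv-3 (-1.10), ndua-5 (-0.69) and ndab-2 (-0.64). The HT115 wild type was the highest of the 10 arrays for 3 members (8.82%, background 14.8%) and the lowest for 5 (14.7%, background 10.5%). The K12 wild type was the lowest of the 10 for 11 members (32.4%, background 6.46%) and the highest for 0 (background 5.48%). The members that gave the smallest p in the RNAi comparison, nduv-2, nduf-7 and ndub-10, were thus those in which a single control array lay furthest outside the other arrays. Tissue markers differed between these arrays too. Neuron genes had a median of 0.74 in K12 minus HT115 (10 of 10 higher), sperm genes 0.57 (34 of 38 higher) and oocyte genes -0.19 (0 of 10 higher), and their part in the subunit values was not tested. The bacterial culture and the state of each single control culture cannot be told apart here.

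**Figure D5:**
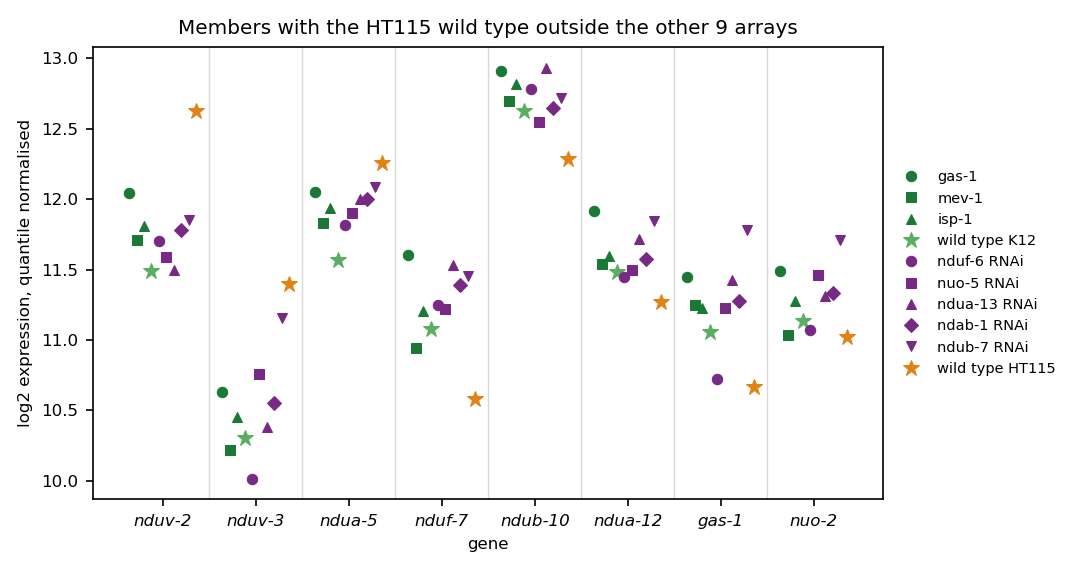
Levels (log2, quantile normalised) in the 10 arrays for the 8 members in which the HT115 wild type (orange star) lay outside the range of the other arrays, above it for nduv-2, nduv-3 and ndua-5 and below it for nduf-7, ndub-10, ndua-12, gas-1 and nuo-2. The gap is largest for nduv-2 (0.58) and nduf-7 (0.36).

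Other genes of the pathway were counted for comparison, and 0 of their members passed limma's test in the 3 comparisons with wild type. The 5 genes named as complex I assembly factors (nuaf-1, nuaf-3, nuaf-5, nuaf-6 and nuaf-7) had medians of 0.14 in the missense mutants and -0.15 in the RNAi arrays, where 4 of 5 were lower. In the RNAi comparison an unadjusted p under 0.05 was reached by 1 of 5 assembly factors, 1 of 7 genes of ubiquinone synthesis, 2 of 6 of complex III, 1 of 9 of the ATP synthase and none of complexes II and IV, beside 8.2% of all genes tested. In the array labelled ndub-7 RNAi, in which 29 of 34 subunits were higher, 1 of 5 assembly factors was higher, with a median of -0.24. The 7 genes of ubiquinone synthesis, the pathway that makes the electron acceptor of complex I, had medians of 0.17 and 0.26 in the missense and RNAi comparisons, with 6 of 7 higher in each. Genes of complex II (5), complex III (6), complex IV (7) and the ATP synthase (9) were summarised by array. In gas-1 the medians were 0.46 for complex II, 0.45 for complex III, 0.34 for complex IV and 0.20 for the ATP synthase, beside 0.38 for complex I. In mev-1 these lists stood, in this order, at -0.09, 0.04, 0.00 and -0.08, beside 0.06 for complex I. In isp-1 they stood at 0.33, 0.13, 0.22 and 0.05, beside 0.20 for complex I. In nduf-6 RNAi they stood at -0.18, 0.16, 0.03 and 0.04, beside -0.14 for complex I. In ndub-7 RNAi they stood at 0.53, 0.59, 0.17 and 0.30, beside 0.42 for complex I. These lists are small, and whether complex I differed from them was not tested.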

How the data were processed

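The authors deposited log2 values for 22625 probe sets of 10 Affymetrix arrays. The scale was taken to be log2 because the values span 1.43 to 16.01, while for their summarisation and normalisation no step is stated in the sources used here. The median of an array was 5.88 to 6.01. Detection calls were not given, and precision is limited by having 10 arrays. The 77 control probe sets were left out and the rest were quantile normalised. Symbols came from the platform annotation, updated by Entrez identifier through the RefSeq table of WBcel235 (20701 of 20766 probe sets with 1 symbol matched), which served for names only; 887 probe sets with several symbols and 895 with none were left out. Probe sets with a mean under the 25th percentile were left out, and each gene was read from its probe set with the highest mean.

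Tests used the limma package, version 3.58.1, under R 4.3.3 (trended empirical Bayes, two-sided, Benjamini-Hochberg over 12641 genes, threshold 0.05). The 8 mutants were compared with both wild types in a fit with a culture term (7 residual degrees of freedom), and the missense and RNAi groups with their own wild types, and the responses with each other, in a fit of 4 groups (6 residual degrees of freedom). Single arrays were compared by size only. Nothing says whether the pooled replicates of an array were separate in other respects, and p-values measure the spread between arrays. On 10 simulated data sets with 200 of 12641 genes changed, 2-fold changes were recovered at 43.0%, 18.4% and 21.0% in the comparisons of the 8 mutants, the missense mutants and the RNAi arrays, and 4-fold changes at 81.8%, 61.2% and 63.5%.

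The genes and lists were chosen with earlier results of these data known. Named with full values were the mutated or targeted genes, nduf-2.2, up to 4 members per direction with the smallest p in each comparison with wild type and the members furthest from wild type in single arrays. Alternatives were the deposited or median-centred values, other filters, the mean of a gene's probe sets, other moderation, no culture term, a fit on the compared groups alone and leaving out each array.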

Additional observations from a re-analysis of the deposited data

Results flagged for a closer look

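The gene nduv-2 was higher than the K12 wild type in 3 of 3 missense arrays and lower than the HT115 wild type in 5 of 5 RNAi arrays, and the difference of the responses, RNAi minus missense, was -1.31 (limma adjusted p = 0.292, not passing). The gene ndua-5 had the same pattern, with a difference of -0.67 (limma adjusted p = 0.884, not passing). Over all genes tested, 6.45% had every missense array on one side and every RNAi array on the other, counted in either direction. For both genes the K12 wild type was the lowest and the HT115 wild type the highest of the 10 arrays. No RNAi array stood apart from the other 4 by Dixon's test at the 95% level in any of the 34 members or in the medians of the complex and its parts, and chance would give about 1 in 20. With only 5 values this test finds little. It did not flag nuo-5 in its own RNAi array, at 51.9% of the wild-type level, so it cannot show that no array was distinct.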

How the results depend on the processing

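The count of members that passed stayed at 0 under the alternatives run, except for RNAi against the HT115 wild type with no filter on low values, where it was 1 (nduv-2, among 17118 genes tested). Leaving out each array in turn, the median member difference ran from 0.06 (without the K12 wild type) to 0.21 (without the HT115 wild type) in the 8 mutants, from 0.12 (without gas-1) to 0.29 (without mev-1) in the missense mutants, from -0.02 (without ndub-7 RNAi) to 0.12 (without nduf-6 RNAi) in the RNAi arrays, and from -0.22 to -0.05 in the difference of the responses. The number of members higher ran from 23 to 33, from 30 to 33, from 15 to 27 and from 7 to 14 in these comparisons. Without the arrays labelled nduf-6 and ndub-7 RNAi together, an alternative chosen after seeing the data, the RNAi median was 0.03 with 21 of 34 higher. The sign of ndua-8 in the missense mutants turned with median-centred values (0.030), and it ran from -0.11 (without gas-1) to 0.13 (without mev-1). In the 8 mutants 4 members turned sign between leaving out the K12 and the HT115 wild type, nduv-2 from -0.94 to 0.37, nduv-3 from -0.82 to 0.13, ndab-2 from -0.42 to 0.18 and nduf-2.2 from -0.30 to 0.19. By construction only the RNAi mutants then have a control in the first case and only the missense mutants in the second. Over all settings the genes called among all those tested ran from 0 to 50, from 0 to 98, from 0 to 305 and from 1 to 251 in the 4 comparisons, with all but the first of these upper values reached without a filter. No paired analysis was possible because the replicate numbers name different strains and RNAi targets, not matched samples, and each wild type is 1 array. Signal over background was not available as detection calls, and the single array per strain limits all comparisons.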
